A study of Mus musculus with 2 samples.

Results

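One two-colour array compared an Nr5a2-EGFP clone with an EGFP clone of mouse embryonic stem (ES) cells after doxycycline had shut off their Oct4. It is 1 of the 2 arrays of the series, chosen by its label, and 26023 of the 31706 gene names on it had a probe well above background in at least 1 dye. Both clones derive from ZHBTc4, an ES cell line in which the endogenous Oct4 alleles are disrupted and Oct4 comes from a transgene that doxycycline represses. The control, EGFP clone 2-5, carried pCAG-IP/EGFP and was labelled with Cy3, and the other, Nr5a2-EGFP clone 26, carried pCAG-IP/Nr5a2-EGFP and was labelled with Cy5. They were kept off feeders in medium with 15% serum and 1000 IU/ml of LIF and received doxycycline before harvest. For each clone 10 µg of total RNA was copied from an oligo-dT primer, and the dye was built into the cDNA during that step. Each clone is a single monoclonal line, the design has no replicate and no dye swap, and the sources used here do not give the time under doxycycline. The transgene, the clone and the dye therefore cannot be told apart in any value below, and with 1 array there is no error between cultures and no test.

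Oct4, encoded by Pou5f1, is the homeodomain factor that keeps ES cells undifferentiated, and its loss turns them towards trophoblast. Nr5a2, also called Lrh-1, is a nuclear receptor that binds DNA as a monomer at extended half-sites and acts in liver, pancreas, intestine and ovary on bile acid, cholesterol and steroid genes. In ES cells it binds regulatory DNA of Pou5f1 and of other genes of the undifferentiated state, which is the setting in which an Nr5a2 transgene was put into cells that lose Oct4.

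Values below are log2 ratios of Nr5a2-EGFP over EGFP after background correction and an intensity-dependent loess fit, so a positive value is a higher level in the Nr5a2-EGFP clone. A gene was counted as higher or lower at a log2 ratio of at least 1 or at most -1, which is 2-fold. By that rule 8.43% of genes were apart, 3.31% (862 genes) higher and 5.11% (1331 genes) lower in the Nr5a2-EGFP clone. With median centring in place of loess the split was 1545 higher and 909 lower. The median over all genes was 0.03, the SD across genes 0.59, and the span from the 5th to the 95th percentile ran from -1.01 to 0.87. After loess, large ratios lay more often on the lower side, with 145 genes at least 4-fold lower and 50 at least 4-fold higher, and 17 against 8 at 8-fold. For spots that were saturated or dim in a channel the ratio is a bound, which applied to 50 dim and 14 saturated genes on the higher side and to 61 dim and 2 saturated genes on the lower side. Where 2 processed signals are given for a gene, the EGFP clone comes first; they are the software's background-subtracted and dye-normalised intensity in arbitrary units.

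**Figure D1:**
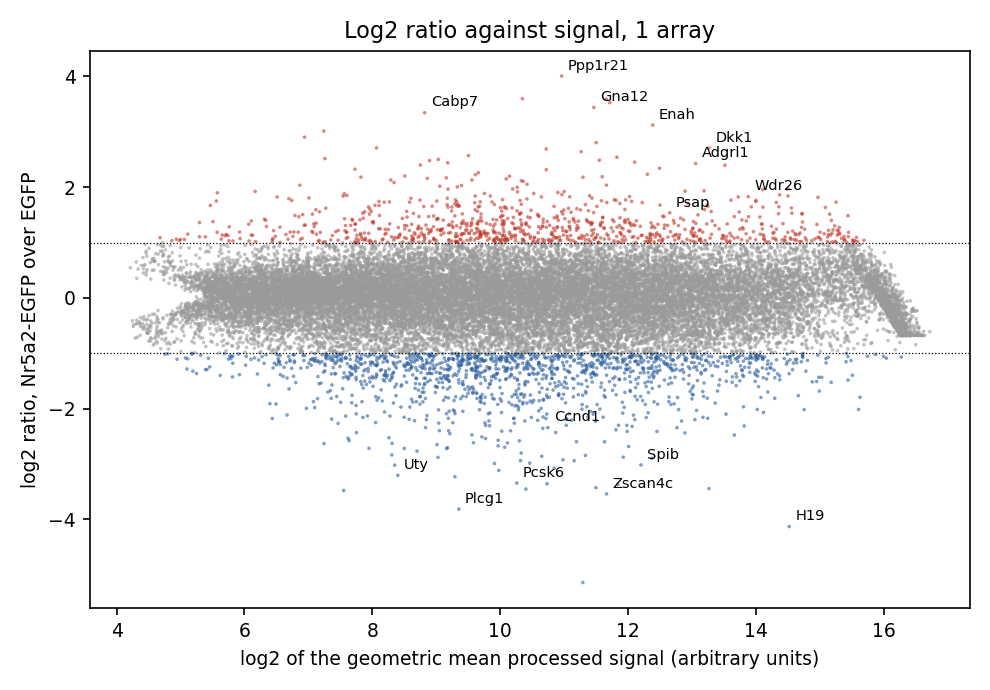
Each point is 1 of the 26023 genes, with the log2 of the geometric mean of its Cy3 and Cy5 processed signals on the x axis and its log2 ratio on the y axis. Red points are the 862 higher genes, blue points the 1331 lower ones, and dotted lines mark 1 and -1. The sloping edge at the right is where Cy5 spots reached saturation.

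The array held 43020 spots of 39429 probes, and 79.3% of the spots in Cy3 and 78.9% in Cy5 lay well above background. Cells of both clones still gave signal for ES cell genes, with processed signals of 105648 and 59608 for Nanog and of 4746 and 4989 for Sox2. Trophoblast genes were well above background too, with 22103 and 17262 for Cdx2 and 21157 and 31517 for Krt18. Of the endothelial markers, 0 of 9 measured were at least 2-fold apart. Of 13 markers of blood cells 1 was higher and 2 lower (23.1%). The higher one was Adgre1, at least 4.10-fold. The lower ones were the alpha globin gene Hba-a1 (-1.53) and Cd3e (-1.06, and -0.78 with the second Cy5 reading described below). Of the pluripotency list 1 of 47 measured genes was higher and 4 lower (10.6%). Of the trophoblast list 3 of 40 were higher and 3 lower (15%). Percentages of a list, here and below, are its share past 2-fold in either direction, beside 8.43% of all genes. Reference genes differed by less than 2-fold in 15 of 15 cases, with Hprt at -0.10, Tbp at 0.09, Actb at -0.33 and Gapdh at 0.59 on the log2 scale. The probes of the targeted genes are no check of the labels, because the files do not say which part of the transcripts the transgenes carry. Nr5a2 gave -0.92 and -0.39 at its 2 probes and Pou5f1, dim in both dyes, -0.12.

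In addition, the Nr5a2-EGFP clone was read in Cy5 on the other array of the series, against a different Cy3 clone, and that second reading served as the only check on a level. Setting it against the same Cy3 reading of the EGFP clone kept 733 of 851 higher genes (86.1%) and 1104 of 1331 lower genes (82.9%) at least 2-fold apart. Counted afresh, the second reading put 1244 genes higher and 1713 lower, so many genes past 2-fold with it were within 2-fold here. Both calculations share the EGFP reading, so this does not check that side. Across 25921 genes the SD of the log2 difference between the readings was 0.28. Of 213 genes named in the text that were past 2-fold at their brightest probe, 25 were within 2-fold or of the other sign with the second reading. Of these, 6 had the other sign, and 12 kept at least 0.8 in the same direction. The genes of the other sign and those that kept less than 0.8 are given below with both values.

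The lowest ratios included a pair of imprinted long non-coding RNAs that are expressed from the maternal chromosome, H19 and Meg3. They are shown by their probes because the 2 brightest probes of each gene can be compared, which were both past 2-fold for Meg3 and disagreed for H19. The 60-base probe sequences are given 5′ to 3′ in lower case with mm9 coordinates, and no letters are marked.
H19 probe 1, minus strand, chr7:149761492-149761551: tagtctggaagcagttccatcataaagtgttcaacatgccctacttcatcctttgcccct
H19 probe 2, minus strand, chr7:149762417-149762476: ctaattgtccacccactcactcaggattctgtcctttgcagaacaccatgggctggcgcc
Meg3 probe 1, plus strand, chr12:110809678-110809737: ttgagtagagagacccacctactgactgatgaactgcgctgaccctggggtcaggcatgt
Meg3 probe 2, plus strand, chr12:110799558-110799617: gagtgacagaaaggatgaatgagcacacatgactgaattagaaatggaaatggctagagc
H19 probe 1 had a processed signal of 100609 in the EGFP clone and 5505 in the Nr5a2-EGFP clone, a log2 ratio of -4.13. H19 probe 2 was dim, at 231.7 and 272.2, with a ratio of 0.11. The 2 probes of H19 thus disagreed. Meg3 was lower at both probes shown, with 11943 in the EGFP clone and 1126 in the Nr5a2-EGFP clone at probe 1 (-3.37) and 2965 and 400.9 at probe 2 (-2.70). With the second Cy5 reading the same probes of Meg3 gave -5.94 and -3.97, and the brighter H19 probe -4.76.

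Several of the leading genes had probes that did not move together. Of the 15 highest genes well above background in both dyes, 6 had several probes and 2 of these were past 2-fold at each of them. Of the 15 lowest, 3 of 6 were. Ppp1r21, which encodes an endosomal adaptor protein, led the higher side at 4.01 with a processed signal of 432.3 in the EGFP clone and 9217 in the Nr5a2-EGFP clone, while its other probe gave -0.20. Plcg1, the gamma 1 phospholipase C of receptor tyrosine kinase signalling, was -3.81 (3029 and 141.5) at one probe and -0.62 at the other. The teneurin gene Tenm4 was 2.54 at one probe and 0.09 at the other. Each of these genes was past 4-fold at 1 probe and within 2-fold at the other.

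Among 472 genes past 2-fold at their brightest probe that had further probes, 351 had the same sign at the next brightest probe and 120 were past 2-fold in the same direction there. At the next probe the 208 higher genes had a median of 0.28 and the 264 lower genes of -0.51. Agreement across all probes was reached by 17.3% of such higher genes and 27.3% of such lower genes.

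**Figure D2:**
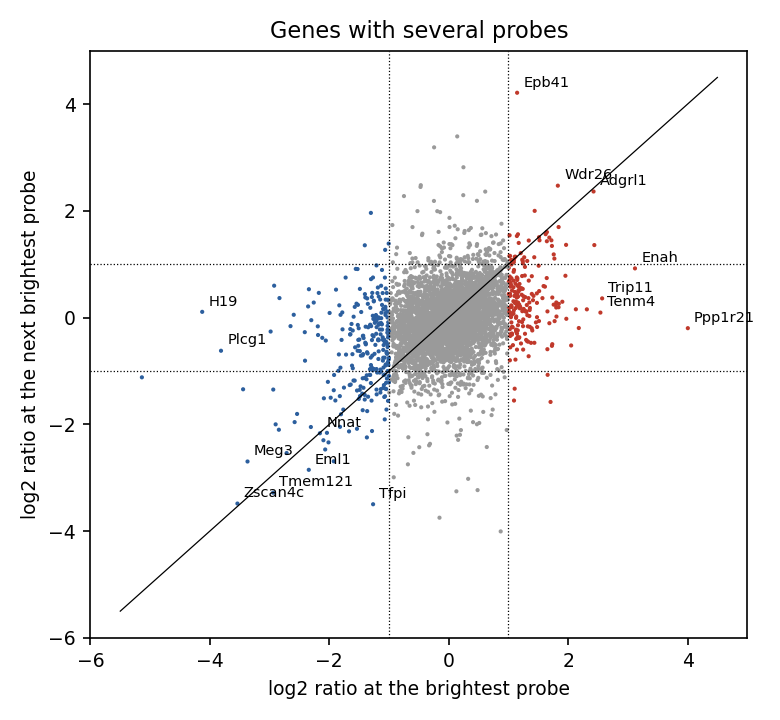
Each point is 1 of 4923 genes with several probes, with the log2 ratio at the brightest probe on the x axis and at the next brightest on the y axis. Red and blue mark genes at least 2-fold higher or lower at the brightest probe, and the solid line is equality. Adgrl1, Wdr26, Meg3, Tmem121 and Eml1 lie near the line, while Ppp1r21, Plcg1 and H19 lie near 0 on the y axis.

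The next counts take only probes well above background in both dyes, and genes with an official symbol and 2 or more such probes. Those probes were all past 2-fold in the same direction for 28 genes on the higher side and 65 on the lower side. Higher genes were led by Epb41, which encodes the membrane skeleton protein 4.1R, with ratios of 1.15 and 4.21 at its 2 probes well above background. Adgrl1, a latrophilin adhesion receptor, gave 2.43 and 2.36, with signals of 3579 in the EGFP clone and 20349 in the Nr5a2-EGFP clone at the brighter probe. Wdr26, a subunit of a ubiquitin ligase complex, gave 1.83 and 2.47. Phb2, a prohibitin of the inner mitochondrial membrane, gave 1.84 and 1.70, and Lpgat1, a lysophospholipid acyltransferase, ranged from 1.45 to 2.08 over 3 probes. Retreg2 (1.44 and 2.0), Sez6 (1.36 and 1.97), Calcoco2 (1.6 and 1.64), an autophagy receptor, Tdrp (1.5 and 1.68) and Lbr (1.34 and 1.73), the lamin B receptor, completed the first 10. On the lower side Tmem121 gave -2.94 and -3.28, Tm6sf1 -2.71 and -2.54, and the microtubule-associated Eml1 -2.34 and -2.85. Crispld2 gave -2.90 and -2.0 (-1.32 and -2.17 with the second Cy5 reading), and Tfpi, the inhibitor of the tissue factor pathway, -1.27 and -3.50. The ion pump regulator Fxyd2 was -2.07 and -2.47 and Etv2, an ETS factor of blood and endothelial development, -2.58 and -1.96. Pla2g5, a secreted phospholipase A2, was -3.44 and -1.34, and Cpne2 was -2.30 and -2.1.

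Probes printed several times showed how far single spots scattered. There were 399 probes printed 10 times, and over 397 of them with several usable spots the log2 ratios of a probe's spots had a median SD of 0.068. This covers error on the slide only. Of 320 such probes well above background in at least 1 dye, 14 were higher and 19 lower, 10.3% in all. Ntng1, a netrin-like axon guidance gene, had spots from -2.42 to -1.91 and a mean of -2.29 ± 0.176 (SD, n = 8 spots). Grrp1 had -2.02 ± 0.077 (n = 10 spots) and Ddah1, which degrades an inhibitor of nitric oxide synthesis, -1.67 ± 0.033 (n = 8 spots). All their spots lay below -1. On the higher side the olfactory receptor gene Olfr1307 had 1.80 ± 0.141 (n = 10 spots), the zinc finger gene Zfp64 1.41 ± 0.036 (n = 10 spots) and Ahctf1, which encodes the nuclear pore protein ELYS, 1.39 ± 0.043 (n = 9 spots). All their spots lay above 1. Acta2, smooth muscle actin, was at -1.43 ± 0.077 (n = 9 spots) and Des, the muscle intermediate filament desmin, at -1.16 ± 0.053 (n = 10 spots). Slc2a4, the insulin-regulated glucose transporter GLUT4, stood at 1.13 ± 0.040 (n = 10 spots) and Nppa, the atrial natriuretic peptide gene, at 1.13 ± 0.053 (n = 8 spots). Ngfr, a neurotrophin receptor gene, was an exception in the second reading: it gave -1.51 ± 0.081 (n = 10 spots) here and 0.55 with the other Cy5 reading, although spots on 1 array agreed closely.

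**Figure D3:**
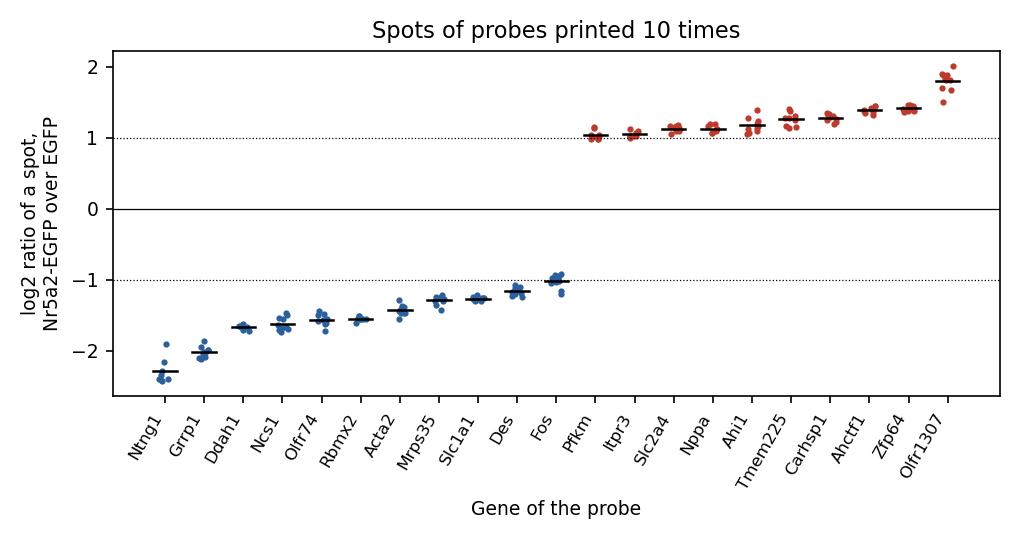
Points are single spots of probes printed 10 times, 1 column a gene, with the log2 ratio on the y axis and the mean as a black line. The 21 genes shown are among the 33 past 2-fold, blue where lower in the Nr5a2-EGFP clone (Ntng1 lowest, mean -2.29) and red where higher (Olfr1307 highest, mean 1.80).

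Higher genes were more frequent on chromosome 1 than on the other autosomes and the X. On chromosome 1, 116 of 1432 genes (8.10%) were higher and 43 (3.0%) lower, where the other autosomes and the X had from 2.1% to 3.99% of genes higher. The median of chromosome 1 was 0.15, and those of the other autosomes and the X ran from -0.03 to 0.08. The excess lay in the distal stretch. In windows of 10 Mb with at least 20 genes well above background in both dyes, the 7 windows of chromosome 1 below 70 Mb had medians from -0.11 to 0.07 and the 12 such windows from 70 to 200 Mb from 0.15 to 0.57. All 248 other windows of the genome ran from -0.31 to 0.37, so single windows elsewhere reached the lower part of that range. Examples are 80 to 90 Mb of the X (0.32) and 20 to 30 Mb of chromosome 15 (0.31). Among genes well above background in both dyes, 3.30% were higher and 5.17% lower genome-wide. From 180 to 200 Mb, 39 of 151 genes (25.8%) were higher and 1 lower, G0s2 at -1.09, and 118 of 151 ratios were above 0. From 70 to 180 Mb, 65 of 821 genes (7.92%) were higher, and below 70 Mb 10 of 387 (2.58%). Outside chromosome 1, the first 10 Mb of chromosome 14 had a median of 0.37, with 5 of 54 genes (9.26%) higher and 0 lower. The highest ratios there were mostly those of predicted genes with Gm symbols. The window boundaries and the genes named from them were chosen after the values were seen. Nr5a2 itself lies in the stretch of chromosome 1 from 70 to 200 Mb.

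Between 180 and 200 Mb of chromosome 1, Wdr26, Lbr, Lpgat1 and the replacement histone gene H3f3a (1.45 and 1.52) were higher at each of their probes, as were Iars2, a mitochondrial isoleucyl-tRNA synthetase gene (1.01 and 1.05), and Kctd3 (1.06 and 1.31). Enah, an actin regulator, was 3.12 and 0.92 at its probes. Rab3gap2, a regulator of a Rab GTPase, read 572 and 2902 (2.12), and Fbxo28, an F-box gene, 294 and 1545 (2.03). The phosphatase subunit gene Ppp2r5a read 11415 and 39526 (1.86), and Angel2 4338 and 14215 (1.71). Of the 28 genes that were higher at each of several probes well above background in both dyes, 11 lay on chromosome 1 between 70 and 200 Mb. Of the 65 lower ones none did. That stretch held 972 of the 24583 genes well above background in both dyes, so by share alone few of 65 would lie there. The segment's median from 70 to 200 Mb was 0.22, and 0.20 with the second Cy5 reading.

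Chromosome 6 between 140 and 150 Mb differed the other way. Of its 85 genes, 0 were higher and 16 (18.8%) lower, with a median of -0.31, and of -0.43 with the second Cy5 reading. The loess median was the lowest of 260 windows, at -0.312 just below 60 to 70 Mb of chromosome 12 (-0.305). With median centring the window stood at -0.141, and 20 to 30 Mb of chromosome 4 was lower (-0.18). Casc1, an axonemal gene, read 1676 in the EGFP clone and 200 in the Nr5a2-EGFP clone (-2.71), and the alpha tubulin gene Tuba3b 30345 and 5549 (-2.48). Klhl42, a substrate adaptor of a ubiquitin ligase, read 33338 and 8306 (-2.01), Golt1b 3601 and 1039 (-1.76) and Pyroxd1 4709 and 1419 (-1.69). Med21, a subunit of Mediator, read 22969 and 7645 (-1.58). The rest of chromosome 6 had 45 of 1171 genes higher (3.84%) and 76 lower (6.49%).

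**Figure D4:**
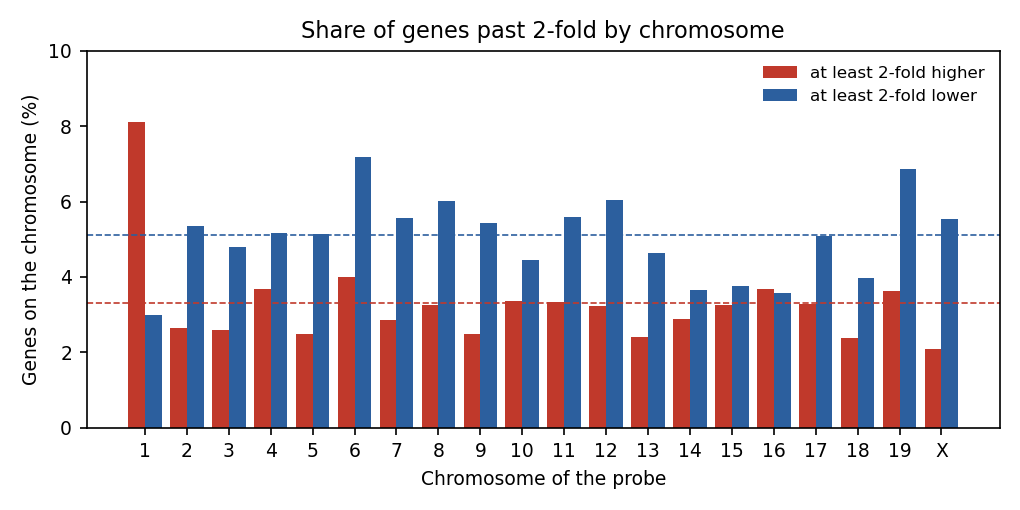
Bars give the percentage of each chromosome's measured genes past 2-fold, higher in red and lower in blue, with the genome-wide 3.31% and 5.11% as dashed lines. Chromosome 1 is the only one shown where the red bar passes 4% (8.10%), and chromosome 6 has the tallest blue bar (7.17%).

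Signalling pathways differed in a few members each. The Wnt list held 4 higher and 6 lower of 64 measured members (15.6%, against 8.43% of all genes; median 0.12). Among its ligands Wnt7a was 1.67, with signals of 324.6 in the EGFP clone and 1254 in the Nr5a2-EGFP clone. Secreted inhibitors went both ways: Dkk1 read 3783 and 25680 (2.70), and Sfrp2 and Dkk3 were -2.1 and -1.39. The agonist gene Rspo1 was -2.15 (5642 and 1245). Of the target genes, the cyclin D1 gene Ccnd1 was -2.34 (4048 and 729.1) and the feedback inhibitor gene Axin2 -1.11, while the homeobox gene Cdx1, at 112.3 and 401.8, was 1.23. Fzd10, a receptor gene, was -1.04, and -0.75 with the second reading.

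FGF signalling through ERK maintains trophoblast stem cells and primes ES cells for differentiation. Of 33 measured members, 1 was higher and 4 lower (15.2%), with a median of -0.12. Fgf4, the main FGF ligand of ES cells, was -2.20 here (9430 and 2067) but 0.73 with the second Cy5 reading. Of the ERK feedback and target genes, Phlda1 was -1.24, Dusp6 -1.18 (-0.48 with the second reading) and Fos -1.02. Fgf1 was 1.04 at one probe and -0.31 at the other.

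LIF, present in the medium, acts through gp130 and STAT3. Its list had 3 higher and 2 lower of 21 members (23.8%, median -0.07). The STAT3 targets Junb (137 and 694, 1.73), Pim1 (30540 and 59668, 1.11) and Socs1 (30019 and 57324, 1.08) were the higher ones. Il6ra, the interleukin 6 receptor gene, was -2.26 and Stat5a -1.67. None of the 58 measured TGF-beta, Nodal and BMP genes was past 2-fold, with extremes of -0.99 at the inhibitory Smad6 and 0.94 at the ligand gene Bmp4. None of 13 Hippo genes was, with extremes at Tead4 (-0.52) and Wwtr1 (0.99). In the Notch list of 20 (15%), the ligand gene Dll3 (-1.31 and -1.07 at its probes) and Notch4 (-1.10) were lower. The bHLH gene Hes6 was higher (7711 and 21867, 1.47).

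Nuclear receptors, the family of Nr5a2, had 2 higher and 3 lower of 43 measured members (11.6%, median 0.13). The retinoic acid receptor gene Rarb was 1.65 at one probe and 0.12 at the other, and the vitamin D receptor gene Vdr was 1.41 (2388 and 6584). Lower were Esrrb, Nr3c1, the glucocorticoid receptor gene (-1.19), and Hnf4a of liver and visceral endoderm (-1.11). Esrrb, a partner of the Oct4 network, was -2.30 here and -0.85 with the second Cy5 reading. Among the transcription factors of the pluripotency, trophoblast and primitive endoderm lists, those with the largest ratios included Tbx3 (at least 2.80-fold higher, saturated in Cy5), Gata3 (1.00), Gata2 (0.99) and Bhlhe40 (0.78) upwards, and Esrrb, Hand1 (-1.27), Hnf4a, Gbx2 (-1.0) and Rhox6 (-0.93) downwards. Gbx2 lay just inside the 2-fold limit.

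Nr5a2 binds extended half-sites, so promoters were searched for the letters CAAGGTCA and CAAGGCCA on either strand, from 250 bases before to 50 bases after each start. Of 26023 measured genes, 14374 matched a promoter in RefSeq (GRCm38.p6), and 3.78% of these held either motif. The share was 3.41% among higher genes (17 of 498) and 4.74% among lower genes (40 of 843). The median ratio was 0.02 over the 544 genes with a motif in a promoter and 0.00 over the 13830 without. Among genes within 2-fold 3.74% held either motif. CAAGGTCA, with or without the other motif, was held by 2.01% of higher genes (10), 2.14% of lower ones (18) and 1.4% of those within 2-fold (183 of 13033). CAAGGCCA, counted the same way, was held by 1.61%, 2.73% and 2.36%. Some lower genes with a motif share near-identical upstream sequences and were each counted. A pair of lower genes and 1 higher gene with a motif are shown as examples, 250 bases upstream of the start, 5′ to 3′ on the strand of the gene, with the motif or its reverse complement in capitals.
Psap, plus strand, GRCm38.p6 chr10:60277378-60277627: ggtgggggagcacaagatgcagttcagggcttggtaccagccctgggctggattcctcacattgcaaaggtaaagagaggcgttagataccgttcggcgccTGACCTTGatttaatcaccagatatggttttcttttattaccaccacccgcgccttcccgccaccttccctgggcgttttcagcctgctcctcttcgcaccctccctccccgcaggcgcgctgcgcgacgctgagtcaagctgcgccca
Cited1, minus strand, GRCm38.p6 chrX:102250777-102251026: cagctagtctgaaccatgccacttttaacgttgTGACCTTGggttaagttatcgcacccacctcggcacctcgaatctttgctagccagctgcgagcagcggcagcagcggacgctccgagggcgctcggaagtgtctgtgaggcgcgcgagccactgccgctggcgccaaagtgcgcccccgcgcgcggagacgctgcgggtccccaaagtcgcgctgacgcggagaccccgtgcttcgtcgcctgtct
Plcg1, plus strand, GRCm38.p6 chr2:160731060-160731309: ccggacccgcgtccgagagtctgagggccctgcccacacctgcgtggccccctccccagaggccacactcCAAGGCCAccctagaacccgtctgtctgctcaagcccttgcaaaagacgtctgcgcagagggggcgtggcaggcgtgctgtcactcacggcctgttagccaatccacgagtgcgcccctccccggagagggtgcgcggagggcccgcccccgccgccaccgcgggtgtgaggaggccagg
Psap, the saposin precursor of lysosomes, was 1.54 (3680 and 11302) and carries TGACCTTG, the reverse complement of CAAGGTCA. Cited1, a transcriptional co-regulator needed in the placenta, was -1.33 (2897 and 1106) and carries the same letters. Plcg1 carries CAAGGCCA. A match describes these letters and is not a binding site by itself.

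**Figure D5:**
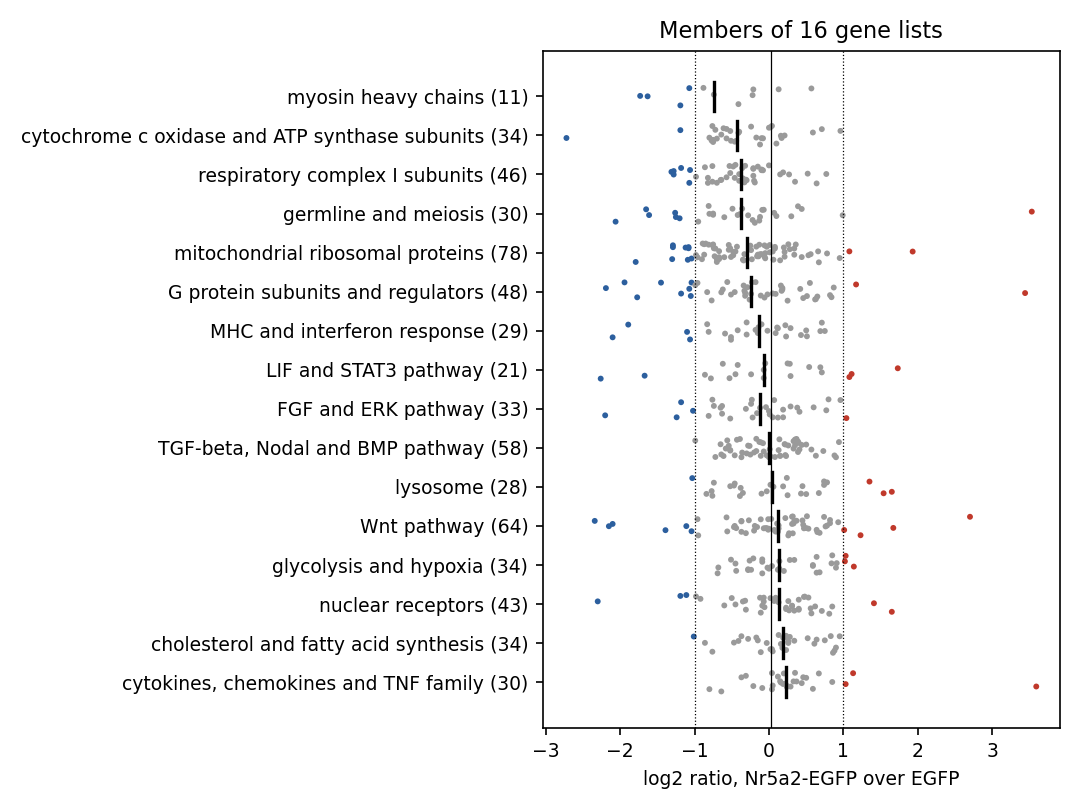
Each point is a measured gene of 1 of 16 lists (number of genes in brackets), placed by its log2 ratio on the x axis. Black bars are list medians, the thin line is the median of all genes (0.03), dotted lines mark -1 and 1, and red and blue points are genes at least 2-fold higher or lower. The mitochondrial and myosin lists have their medians to the left, and no TGF-beta, Nodal and BMP gene passes a dotted line. The myosin median, -0.74 here, ranged from -1.34 to -0.32 under the alternatives run.

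Genes of mitochondrial energy production lay lower as groups. Complex I, which feeds electrons from NADH into the respiratory chain, had 39 of 46 measured subunits below 0 and a median of -0.38. Of these subunits 0 were higher and 6 lower (13%, against 8.43% of all genes). Over all genes well above background in both dyes, 52.4% of ratios were above 0. The lower subunits included Ndufb2 (14910 and 5921, -1.31, other probe -0.96), Ndufa9 (29230 and 11596, -1.28), Ndufs4 (-1.28, and -0.14 with the second Cy5 reading) and Ndufc1 (-1.18). Cytochrome c oxidase and ATP synthase subunits had a median of -0.43 over 34 genes, with 2 lower (5.88%, below the 8.43% of all genes). The 2 were the testis isoform gene Cox8c (1160 and 113.1, -2.72) and the muscle isoform gene Cox7a1 (-1.19). Mitochondrial ribosomal protein genes had a median of -0.29 over 78, with 2 higher and 9 lower (14.1%). Mrps25 fell furthest, from 100902 to 25496 (-1.79), with -0.42 at its other probe, and Mrpl44 on chromosome 1 was the highest (4712 and 18547, 1.93). Mrps26 (-1.30), Mrps35 (-1.29) and Mrps5 (-1.29) followed on the lower side, Mrps5 at 0.20 with the second reading. Mrps35 lies in the 140 to 150 Mb stretch of chromosome 6 described above. Cytochrome c itself, Cycs, was -1.13 and -1.41 at its probes, and -0.77 with the second reading at the brighter one.

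Those groups stood apart from all genes by similar amounts under either scaling. With median centring in place of loess the median of all genes moved by 0.13, from 0.03 to 0.16. Relative to all genes complex I was -0.40 with loess and -0.35 with median centring, and cytochrome c oxidase with ATP synthase -0.45 and -0.37. Cytosolic ribosomal protein genes, at a median of -0.06 over 97, had 0 higher and 2 lower (2.06%), Rpl22l1 (-1.15) and Rpl39l (-1.09). Their median depended on the reading, at -0.37 with the second.

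Glycolysis and hypoxia genes had 3 higher and 0 lower of 34 (8.82%, near the 8.43% of all genes; median 0.13). Eno2, an enolase gene, read 17342 and 36773 (1.14) and Pfkm, the muscle phosphofructokinase gene, 6531 and 13709 (1.03). Slc2a3, the glucose transporter GLUT3, was at least 2.03-fold higher, being saturated in Cy5. Sterol and fatty acid synthesis had 1 of 34 lower (2.94%): Insig1 (-1.01), the sterol sensor that holds SREBP back. Lipid transport, a function that Nr5a2 serves in liver, had 1 higher and 4 lower of 26 (19.2%, median -0.29). Relative to all genes its median was -0.32 here and -0.13 with the second Cy5 reading. A list of Nr5a2 targets in liver, gonad and ES cells had 2 higher and 5 lower of 39 (17.9%, median -0.04). In lipid transport the genes went as follows. The apolipoprotein gene Apoc1 was -2.02 (57213 and 13380), the sterol exporter gene Abcg1 -2.18 (3726 and 760.3), its relative Abcg5 -1.06 and the fatty acid binding protein gene Fabp5 -1.90. Star, the mitochondrial cholesterol importer of steroid synthesis, was 1.16 (485.1 and 1231).

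Lysosomal genes had 3 higher and 1 lower of 28 (14.3%, median 0.04). The cathepsin genes Ctsb (5387 and 17618, 1.65) and Ctsl (2584 and 6801, 1.35) were higher beside Psap. Stress responses differed in single genes. In the integrated stress response Trib3 was 1.47 and Chac1 -1.56, among 26 genes (7.69%). Bag3 (1.41) and Hsph1 (1.04 and 0.61 at its probes) were higher among 19 heat shock genes (10.5%). Hmox1 (1.17), Slc30a1 (1.11) and the metallothionein gene Mt1 (-1.13) stood apart among 23 genes of oxidative and metal stress (13%). Slc30a1 lies in the 180 to 200 Mb stretch of chromosome 1 described above. None of 19 unfolded protein response genes passed 2-fold.

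Germline genes lay lower, with a median of -0.37 over 30, 1 higher and 6 lower (23.3%). The meiotic genes Hormad1 (-2.06, other probe -0.43), Dazl (3593 and 1166, -1.61) and Smc1b (-1.26) were lower, as were the X-linked homeobox genes Rhox10 (-1.65) and Rhox13 (-1.25) and the piRNA helicase gene Mov10l1 (-1.20). Tex13b, an X-linked testis gene, was the higher one (934.2 and 12109, 3.53). Of 7 measured male-specific Y genes, 3 were lower (42.9%). Uty (1463 and 77.98, -3.20), a histone demethylase paralogue, and Eif2s3y (10682 and 1594, -2.68), a translation factor gene, were among them. Ddx3y (5862 and 2069, -1.46), an RNA helicase gene, was the other. The second reading gave -3.49, -3.10 and -4.47 for Uty, Eif2s3y and Ddx3y. Zfy2 (-0.12), Sry (0.23), Ssty1 (0.12) and Ssty2 (-0.53) were within 2-fold.

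Hox genes had 1 higher and 4 lower of 30 (16.7%, median -0.05). Hoxa7 (-1.44), Hoxb13 (-1.25) and Hoxd9 (-1.05) were among the lower ones and Hoxa2 was higher (342.9 and 1021, 1.32).

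Cell cycle genes had 2 higher and 2 lower of 50 (median -0.09), which at 8.0% is near the 8.43% of all genes. Of the D cyclins Ccnd1 was lower and Ccnd3 higher (22578 and 47996, 1.19, other probe 0.63). Bub1b of the spindle checkpoint read 3793 and 15270 (1.93). Gmnn, which encodes the licensing inhibitor geminin, was -1.26, and -0.47 with the second reading. Of 27 apoptosis regulators 0 were higher and 3 lower (11.1%). The lower ones included the BH3-only genes Bid (1390 and 361.9, -1.78) and Pmaip1 (-1.27, and -0.80 with the second reading). The caspase gene Casp2 was the other (56035 and 18755, -1.43).

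Chromatin regulators had 3 higher and 2 lower of 38 (13.2%, median 0.16). The Polycomb gene Pcgf2 was 2.31 at one probe and 0.16 at the other, and Cbx2, another Polycomb gene, was 1.27. Of SWI/SNF genes Smarcd2 was 1.09 and Actl6a -1.55. Smarca4, the ATPase of that complex, was -1.17, and 0.12 with the second Cy5 reading. None of 19 genes of DNA methylation and demethylation, from Dnmt3b at -0.80 to Gadd45g at 0.94, and none of 38 replication-dependent histone genes was past 2-fold.

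Epithelial junction genes, at 10.0%, and collagen and laminin genes, at 10.5%, had shares past 2-fold near the 8.43% of all genes. The epithelial junction list had 2 higher and 2 lower of 40, with Cldn3 at -1.90 (20334 and 5474), Tjp3 at -1.06, Gjb2 at 1.35 and Crb3 at 1.09 at both probes. Integrins had 2 higher, Itgb5 (2135 and 8135, 1.83) and Itgb7 (1.14), and 1 lower, Itgb4 (-1.44), of 20 (15%). Of 38 collagen and laminin genes Lamc1 on chromosome 1 was higher (11484 and 36493, 1.72), and Col5a1 (8288 and 2365, -1.77), Col8a2 (-1.54, -0.98 with the second reading, other probe 0.26) and Col6a1 (-1.13) were lower. Secreted proteases had 0 higher and 3 lower of 25 (12%). Among the lower ones were the proprotein convertase gene Pcsk6 (4304 and 350.3, -3.34), which processes Nodal, and Adamts9 (-1.31). The matrix glycoprotein gene Fbln2 read 9854 and 849.3 (-3.43). Myosin heavy chain genes had 0 higher and 4 lower of 11 (36.4%, median -0.74). That median was -1.34 with the software's ratio, -0.41 as the mean over probes and -0.32 with no filter on background, and Myh8 (-1.73 and 0.75) and Myh6 (-1.63 and -0.12) disagreed between probes.

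The MHC and interferon list had 0 higher and 4 lower of 29 (13.8%, median -0.14). Lower were the immunoproteasome gene Psmb8 (5908 and 1336, -2.1) and the MHC class I activator gene Nlrc5 (-1.89, other probe 0.52). Rsad2 (-1.10) and Ly6e (-1.06) were the others. Cytokines, chemokines and TNF family genes had 3 higher and 0 lower of 30 (10.0%, median 0.23), namely the lymphotoxin gene Ltb (882.5 and 11876, 3.59), Tnfrsf12a (1.13) and Il34 (1.03). Spib, an ETS factor of B cells, read 13653 and 1627 (-3.02).

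G protein subunits and their regulators had 2 higher and 8 lower of 48 (20.8%, median -0.23). Gna12, which encodes an alpha subunit, read 798.4 and 10016 (3.44). RGS genes, whose products switch G proteins off, were lower for Rgs2 (-1.94), Rgs5 (-1.77), Rgs17 (-1.18) and Rgs10 (-1.05) and higher for Rgs8 (1.17). Adcy7, an adenylyl cyclase downstream of G proteins, read 3260 and 312.2 (-3.11).

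Of 325 solute carriers, 16 were higher and 17 lower (median 0.06), which at 10.2% is near the 8.43% of all genes. Those past 2-fold ran from Slc10a5 (1.77), Slc32a1 (1.69, other probe -0.11), Slc22a6 (1.55) and Slc25a23 (1.39) to Slc38a5 (4738 and 928.4, -2.30), Slc27a2 (-2.02), Slc25a35 (-1.85, and -0.68 with the second reading) and Slc16a6 (-1.78, other probe -0.22). Potassium channel genes had 4 higher and 5 lower of 67 (13.4%), led by Kcng4 (71.02 and 1013, 2.71) and Kcne3 (1.65, other probe -0.59) upwards and by Kcnk1 (4618 and 942.5, -2.19) and Kcng1 (19499 and 4376, -2.16) downwards. Ligand-gated channels had 4 higher, with Gabrd at 2.13 first, and 2 lower, Grik3 (-1.40, other probe 0.38) and Grik4 (-1.36), of 48 (12.5%).

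Olfactory receptor genes, which encode the odorant receptors of sensory neurons, had 16 higher and 2 lower of 551, 3.27% in all, and a median of 0.22. Olfr543 (147.9 and 1258, 2.40) and Olfr1307 were the highest. Many of these genes are dim, and their median relative to all genes was 0.19 with loess and 0.09 with median centring. Zinc finger genes named Zfp had 9 higher and 18 lower of 348 (7.76%, median -0.19). Zfp219 (1.36 and 2.44 at its probes), Zfp521 (2.02) and Zfp526 (2.0) led upwards. Zfp365 was -1.85 here and 0.05 with the second reading, Zfp248 -1.61 and Zfp264 -1.55.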

How the data were processed

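The authors deposited spot intensity values that Agilent Feature Extraction had written (10.7.3.1 in the headers, 9.3.2.1 in the submitters' processing notes) for array design 026655, with mm9 coordinates per the file headers. They also deposited the software's log10 ratio and its error score, and a log2 value table. Mean signals were corrected against local background medians by normexp (offset 50) and normalised by loess in limma 3.58.1 under R 4.3.3. Control spots and 530 spots flagged as outliers had weight 0 and were then dropped, and saturated spots (133 in Cy3, 1213 in Cy5) stayed in. Spots were averaged per probe, and the brightest probe stood for a gene. RefSeq gave symbols by accession for 26011 of 39182 probes (66.4%), and the files for the others. Aquantile across both arrays served the second Cy5 reading and the bounds, which set the dim side at its own level or, where higher, the lowest level well above background. The genes named were all probes of Nr5a2 and Pou5f1, the 15 highest and lowest genes, the 10 highest and lowest past 2-fold at several probes or spots, the 4 highest and lowest of each list, the 5 most different transcription factors each way, reference genes and Y genes. Some that this rule named are not reported here. The members, lists and families were chosen with earlier results of these data known. Promoters of chromosome 18 were not searched. The steps were tested on simulated data. The number of arrays limits the precision.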

Additional observations from a re-analysis of the deposited data

How the results depend on the processing

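The counts of higher and lower genes moved with the background correction and the scaling. In place of 862 higher and 1331 lower genes, plain subtraction gave 1360 and 1863, the software's log ratio 1775 and 2141, and the authors' deposited log2 values 1776 and 2129. Without within-array normalisation the counts were 7462 and 257. The second Cy5 reading gave 1244 and 1713. Median centring gave 1545 and 909, so that higher genes made up 63.0% of those past 2-fold in place of 39.3%. At 1.5-fold the counts were 3249 and 3731 and at 3-fold 159 and 332. Without the stretches of chromosomes 1 and 6, an alternative chosen after seeing the data, they were 756 and 1289. Of 240 list medians under alternatives, 234 moved by less than 0.28, the SD between the Cy5 readings. The male-specific Y median went to -0.07 with no filter on background and to -0.84 with the second Cy5 reading, that of cytosolic ribosomal genes to -0.37 and that of chromosome Y to -0.50 with that reading. The myosin heavy chain median was -1.34 with the software's ratio, -0.32 with no filter and -0.41 as the mean over probes. With the second Cy5 reading Fgf4 (0.73), Mrps5 (0.20), Ngfr (0.55), Smarca4 (0.12), Igf2 (0.14) and Zfp365 (0.05) changed sign, and the cause was not tested. No gene named here as past 2-fold changed sign under the other alternatives run. No paired analysis was possible because each clone was hybridised once per array with no replicate. Array number and saturation in Cy5 limit these values.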

Other observations

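Developmental transcription factor families differed in single members. Of 38 forkhead genes, 0 were higher and 4 lower (10.5%). Foxm1, a factor of the G2 and M phases, was -1.81 with -0.94 at its other probe, and Foxn3 was -1.28 with -0.33 at its other probe. Foxc2 of mesenchyme (446.1 in the EGFP clone and 103.8 in the Nr5a2-EGFP clone) was -1.48. Of 14 T-box genes, 2 were higher (14.3%): Tbx3 and Tbx20, the latter 1.25 at one probe and -0.60 at the other. Msgn1, a factor of presomitic mesoderm, read 737 and 63.05 (-2.43). The proneural genes Neurog1 (2412 and 677, -1.74) and Neurog2 (192 and 599.9, 1.27) went opposite ways.

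Of 54 imprinted genes 16.7% were past 2-fold. Beyond H19 and Meg3, 6 of them were lower and 1 higher. Sfmbt2, a paternally expressed Polycomb-related gene of the placenta, read 18141 and 3947 (-2.20), and Nnat was -2.16 and -2.17 at its probes. Igf2, the growth factor gene beside H19, was -1.42 here and 0.14 with the second Cy5 reading. Gatm (-1.18), Zrsr1 (-1.05) and Gab1 (-1.0) were the other lower genes, and Peg10 (17751 and 40706, 1.28, other probe 0.79) was the higher one. Cytochrome P450 genes had 5 higher and 3 lower of 71 (11.3%). Among them was Cyp26a1, which degrades retinoic acid, at least 2.19-fold higher with the EGFP clone not well above background. The sodium channel gene Scn4a read 1345 and 128.6 (-2.77). Gpr162 (995.3 and 4030, 1.87) and Gpr39 (674 and 2465, 1.69) were higher among 85 adhesion and orphan receptors (8.24%). The adhesion receptor gene Adgrd1 was at least 4.05-fold lower. Ddx3y had the widest gap among the Y genes between the second Cy5 reading and the first, at -4.47 and -1.46.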
